A study of Mus musculus with 36 samples.

Results

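The comparison concerned culture time in PKP4-KO keratinocytes kept in low calcium medium (LCM), 72 h against 24 h. Its members were chosen by the labels of the deposited libraries, which gave 6 of the 36 libraries of the series, 3 at 72 h and 3 at 24 h. The study sequenced poly(A) RNA of WT, PKP4-KO and Rescue keratinocytes grown for 24 h or for 72 h, in LCM or in high calcium medium (HCM), in 12 groups of 3 libraries. CaCl2 stood at 50 µM in LCM, and 1.2 mM were added to make HCM. All 6 libraries were labelled as Pkp4-knockout cells, and reads of the deleted exon alone were not analysed here. The cells were primary keratinocytes from the epidermis of newborn Pkp4-/- pups on a C57BL/6 J background. Their tm1b allele lacks exon 9, and its lacZ reporter had been bred out. They were grown on collagen I at 32 °C. The medium was the same at both times and contained EGF, insulin, hydrocortisone and cholera toxin. The labels write 24 h as LD and 72 h as HD and give no plating density or confluence. Culture time therefore cannot be told apart from cell density or the state of the medium. The libraries of a group are described as biological replicates and carry only a number. Whether they came from separate pups is not given in the sources used here. P-values rest on the spread between libraries of a group, which the main fit estimated over all 12 groups. WT cells came from Pkp4+/+ pups of the same colony, and Rescue cells were PKP4-KO cells selected after lentiviral transfer of human PKP4 tagged with EGFP. WT, Rescue and HCM libraries served to test whether the change with time differed from that of PKP4-KO in LCM. They were also part of the main fit of all 36 libraries, and so of its filter, scaling and estimate of spread. WT libraries were also the reference for Pkp4.

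Keratinocytes of the basal epidermal layer divide while attached to the basement membrane through integrins and hemidesmosomes. When they leave this layer they stop dividing, replace basal keratins with the suprabasal pair keratin 1 and keratin 10, and reinforce their desmosomes. Finally they assemble the cornified envelope, in which transglutaminases crosslink precursor proteins. In culture, a rise in extracellular calcium is the usual trigger of this program, while low calcium holds most cells in a proliferating state. Cells short of oxygen stabilise hypoxia-inducible factors, which raise transcription of glucose transporters, glycolytic enzymes, mitophagy genes and the prolyl hydroxylases that mark the factors for degradation.

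The 6 libraries held between 15291399 and 21441437 counts. Levels are given as CPM, counts per 1e6 counts of a library after scaling by TMM factors (trimmed mean of M-values). They stand in the order of replicates 1, 2 and 3, or as mean ± SD of 3 libraries. The smallest level read as present was 3 counts. Before TMM scaling this corresponded to between 0.1399 and 0.196 CPM, which covers counting error only. TMM factors ran from 0.733 in the 72 h replicate 2 to 1.18 in the 24 h replicate 3. On the scaled levels 3 counts lie higher where the factor is below 1. Among these 6 libraries, a pair stood apart from the others of their group. In the 24 h replicate 1, genes with under 1000 exonic bases took 10.4% of the counts, against 5.51% and 5.02% in the other two. In the 72 h replicate 2 they took 13.8%, against 8.88% and 8.23%. On the second principal component, which held 27.9% of the variance of the 6 libraries, both lay on the same side, at -69.4 and -28.2, against values from 0.656 to 49.3 for the other 4. Results were therefore also computed without both libraries and with an offset for gene length. Reads of the targeted gene, Pkp4 (chr2:58991088-59185552 on GRCm39, plus strand), were at 8.25, 9.99 and 8.71 CPM in the 24 h libraries and at 14.1, 9.06 and 10.7 CPM in the 72 h libraries. This was 12.6% of the WT level at 24 h (71.1 ± 4.53 CPM) and 27.5% of it at 72 h (41.1 ± 3.16 CPM). All PKP4-KO libraries lay below all WT libraries (exact two-sided permutation test, p = 0.1 at each time, the smallest that 3 against 3 libraries allow). The counts cover the whole gene, so reads outside exon 9 are included. Between the PKP4-KO times the libraries overlapped (log2 fold change 0.33 ± 0.16 (SE), adjusted p = 0.133).

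Of 15114 genes tested, 3952 were called at an adjusted p-value below 0.05 in edgeR's quasi-likelihood test, 1880 higher (12.4% of the tested genes) and 2072 lower (13.7%) at 72 h. The higher calls reached further: 548 genes rose by more than 2 on the log2 scale and 104 fell by more than 2, and beyond 3 the numbers were 291 and 41. The libraries of both times did not overlap for 5009 genes (33.1%). The split depended on scaling. Without TMM factors the median log2 fold change of all tested genes moved from -0.02 to -0.39, and 1069 genes were called higher and 4041 lower, so that 20.9% of the calls were higher against 47.6% with TMM factors. Changes below are relative to the TMM scale. Counts of each list stand beside the 12.4% higher and 13.7% lower of all tested genes. Without both libraries that stood apart, 3466 genes were called, 3125 of them in common with the full comparison and in the same direction. Leaving out the 24 h replicate 3 lowered the genes called lower to 1328, and a fit of only the 6 libraries called 1100 genes higher and 610 lower. In the lists below with 0 calls in one direction, 0 genes passed an unadjusted p below 0.05 in that direction and DESeq2 called 0, apart from 1 gene of the YAP/TAZ list and 1 immune marker, higher at the unadjusted p, and the histone genes, whose counts are given with them. As in any bulk measurement, fewer cells of a kind and less RNA per cell cannot be told apart.

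All 7 keratinocyte markers were present in every library, with a summed level of 42360.3 to 54615.5 CPM at 24 h and 60405.1 to 70250.7 CPM at 72 h, most of it from the basal keratins Krt5 (20885 ± 4187 to 27586 ± 2663 CPM) and Krt14 (26148 ± 2279 to 36572 ± 6313 CPM). Trp63, the transcription factor that defines the epidermal lineage, was at 197 ± 43.2 CPM at 24 h and 194 ± 39.13 CPM at 72 h, with overlapping libraries (log2 fold change -0.02 ± 0.27 (SE), adjusted p = 0.976). Of the 7 markers, Krt14 was called higher (0.48, adjusted p = 0.0157), and Col17a1 and Lamb3 were called lower (-0.57 and -0.72). The Krt14 call was lost under 7 of 15 alternatives, among them library sizes without TMM factors, and that of Lamb3 under 3, both among them when the 24 h replicate 3 was left out. The markers of other cell types summed to at most 5.37 CPM in each list, apart from the simple epithelium list, which holds Krt7. The 8 fibroblast markers summed to between 0.122 and 0.587 CPM in 5 libraries and to 4.65 CPM in the 72 h replicate 3. The 6 melanocyte markers summed to between 0.49997 and 1.04 CPM with Tyrp1, Tyr and Sox10 at 0 in all 6 libraries. The 6 immune markers lay between 0 and 0.141 CPM at 24 h and between 0.335 and 1.1999 CPM at 72 h, with Cd3e and Cd207 at 0 throughout, and the 4 endothelial markers between 2.499 and 5.37 CPM, most of it Pecam1, with Cdh5 at 0. Of the 6 simple epithelium and Merkel cell markers, Atoh1 was at 0, Krt7 was lower at 72 h (11.7 ± 2.102 to 7.13 ± 1.48 CPM, log2 fold change -0.70, adjusted p = 0.0223, a call lost under 8 of 15 alternatives), and Krt19 was called higher at a level of 0.182 ± 0.189 CPM.

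Most genes of glycolysis and of the response to low oxygen were higher at 72 h. Of 33 tested genes of this list, 29 rose, 0 fell and 4 were not called. The median log2 fold change was 1.42, beside -0.02 over all tested genes. Without both libraries that stood apart, 29 of the 33 were also called, and a fit of only the 6 libraries called 27. The sharpest rises were in 3 genes of the oxygen response itself. Egln3, a prolyl hydroxylase that marks hypoxia-inducible factors for degradation (chr12:54225767-54250673, minus strand), was at 6.34, 5.42 and 4.17 CPM in the 24 h libraries and 277, 311 and 246 CPM in the 72 h libraries. The 72 h libraries lay within 1.27-fold of each other, and the lowest of them was 38.7 times the highest 24 h library (log2 fold change 5.71 ± 0.23 (SE), adjusted p = 8.12e-17). Ndrg1, a gene induced by low oxygen and in differentiating epithelia (chr15:66801166-66841835, minus strand), was at 57.9, 43.8 and 41.96 CPM at 24 h and 1302, 1922 and 1538 CPM at 72 h. Its lowest 72 h library was 22.5 times the highest 24 h library (log2 fold change 5.05 ± 0.20 (SE), adjusted p = 8.12e-17). Ankrd37, an ankyrin repeat gene known as a direct target of hypoxia-inducible factor, was at 5.36, 1.96 and 1.64 CPM at 24 h and 111, 118 and 54.9 CPM at 72 h (log2 fold change 5.02 ± 0.45 (SE), adjusted p = 9.67e-10). The 24 h replicate 1 was the highest of its group for this gene and the 72 h replicate 3 the lowest of its own, and the groups did not overlap.

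The promoters of these 3 genes are shown because their genes had the sharpest rise in this list. Each sequence runs 5′ to 3′ from 250 bases before to 50 bases from the annotated start of the canonical transcript on GRCm39, with the letters ACGTG, the core of the hypoxia response element, in capitals on either strand (CACGT where the match is on the other strand).
Egln3, chr12:54250624-54250923, minus strand: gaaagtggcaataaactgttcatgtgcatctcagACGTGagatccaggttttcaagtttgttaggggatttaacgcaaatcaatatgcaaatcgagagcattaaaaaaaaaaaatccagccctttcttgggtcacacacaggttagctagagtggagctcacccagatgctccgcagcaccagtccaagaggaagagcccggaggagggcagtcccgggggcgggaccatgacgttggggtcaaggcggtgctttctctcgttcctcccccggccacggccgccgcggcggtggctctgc
Ndrg1, chr15:66841753-66842052, minus strand: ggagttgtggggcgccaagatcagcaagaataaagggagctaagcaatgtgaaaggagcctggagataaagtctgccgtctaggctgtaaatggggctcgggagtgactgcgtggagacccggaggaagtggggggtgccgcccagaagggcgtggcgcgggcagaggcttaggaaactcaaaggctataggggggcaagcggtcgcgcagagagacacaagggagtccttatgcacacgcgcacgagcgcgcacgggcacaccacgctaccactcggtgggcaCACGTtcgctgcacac
Ankrd37, chr8:46452856-46453155, minus strand: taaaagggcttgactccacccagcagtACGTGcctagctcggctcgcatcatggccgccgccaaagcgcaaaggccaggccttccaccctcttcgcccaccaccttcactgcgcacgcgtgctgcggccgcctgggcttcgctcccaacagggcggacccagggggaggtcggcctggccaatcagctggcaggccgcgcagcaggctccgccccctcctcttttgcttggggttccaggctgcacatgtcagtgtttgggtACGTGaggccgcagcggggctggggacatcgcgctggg
The core was present in 18 of 33 promoters of the list (54.5%) and in 25.7% of the 12552 promoters of tested protein-coding genes with the same window. The motif was chosen with the results known, and a match gives letters, not binding.

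The remaining genes of the list followed the steps of the pathway. The glucose transporter Slc2a1 rose from 88.5 ± 9.104 to 282 ± 68.8 CPM (1.67, adjusted p = 3.61e-10), and the hexokinases Hk1 and Hk2, which trap glucose in the cell, rose by 2.27 and 1.51 on the log2 scale. Every later enzyme tested from Gpi1 to Ldha, apart from Eno2, which had 0 counts in the 6 libraries, was called higher, with Aldoa at 1019 ± 153 to 2725 ± 476 CPM and Ldha, which makes lactate, at 2647 ± 300.2 to 5516 ± 186 CPM. Aldoc, the second aldolase, was at 3.17, 1.91 and 2.06 CPM at 24 h and 27.7, 24.7 and 21.8 CPM at 72 h (log2 fold change 3.39 ± 0.57 (SE), adjusted p = 4.73e-05). Pkm, which makes pyruvate, showed the smallest of these called changes (0.58). Bnip3, a mitophagy receptor, rose from 14.8 ± 3.73 to 260.1 ± 24.1 CPM (4.14, adjusted p = 1.66e-12), and its relative Bnip3l by 1.97. The pyruvate dehydrogenase kinase Pdk1 rose by 1.196, the angiogenic factor Vegfa by 0.94 and the collagen prolyl hydroxylase P4ha2 by 2.20. Car9, the carbonic anhydrase often used as a hypoxia marker, was at 0.299 ± 0.185 to 0.195 ± 0.174 CPM and was not called (log2 fold change -0.62 ± 0.95 (SE), adjusted p = 0.688), and Slc2a3 and Slc16a3 were too low to be tested. Ndufa4l2, a paralog of a respiratory chain subunit and the gene with the sharpest rise by the naming rule (chr10:127350818-127353038, plus strand), was not on the list. It was at 2.04, 0.502 and 0.843 CPM in the 24 h libraries and 138, 244 and 81.4 CPM in the 72 h libraries (log2 fold change 7.16 ± 0.62 (SE), adjusted p = 5.29e-10). The 72 h libraries differed 3.003-fold among themselves, yet the lowest of them was 39.8 times the highest 24 h library.

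**Figure D1:**
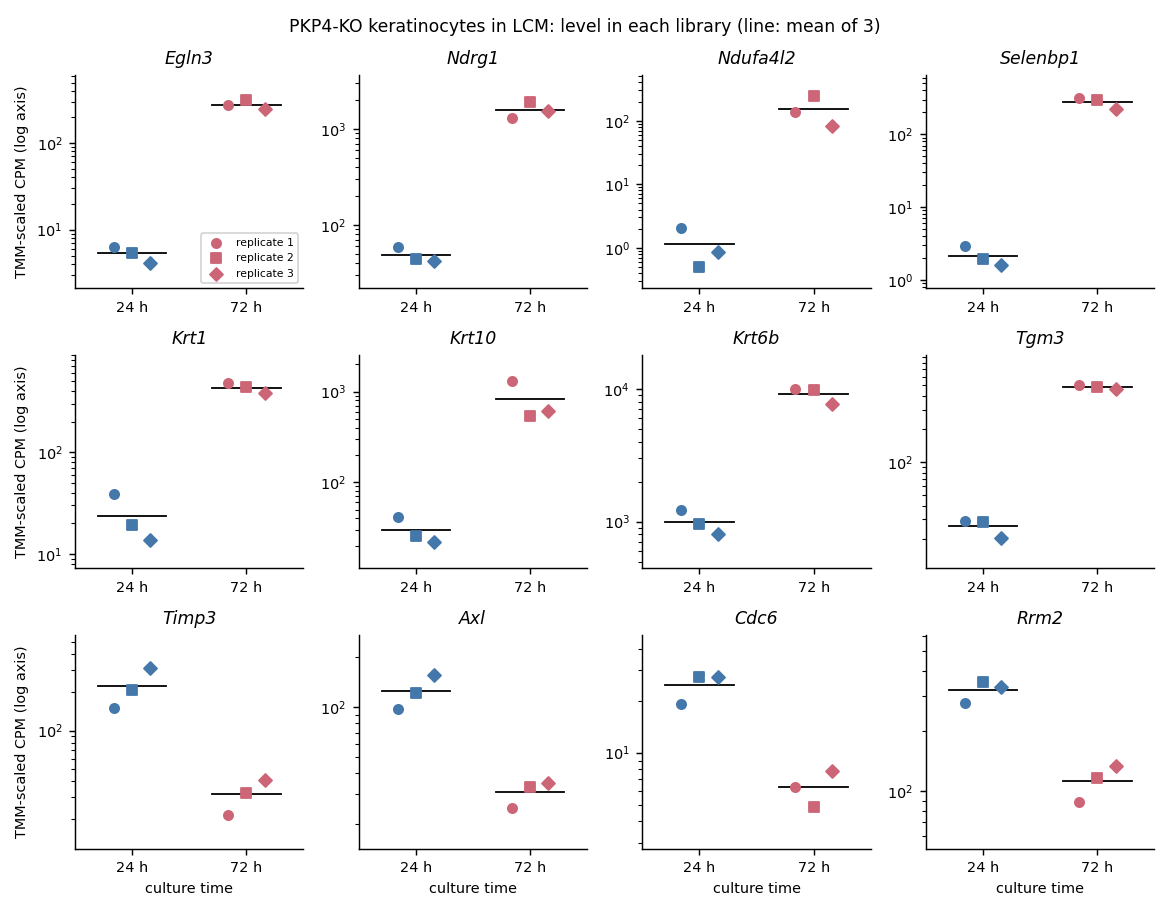
Level of 12 genes in each PKP4-KO library in LCM, in TMM-scaled CPM on a log axis that differs between panels, at 24 h (blue) and 72 h (red), with the mean of 3 libraries as a line and replicates 1, 2 and 3 as circle, square and diamond. Of these genes, 8 were higher at 72 h, such as Egln3 (5.31 against 278 CPM), and Timp3, Axl, Cdc6 and Rrm2 were lower. The groups did not overlap in any panel, which was partly built in. All were called genes picked for large changes, some by a rule that required no overlap. Over all tested genes 33.1% did not overlap.

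Genes of keratinocyte differentiation rose although calcium stayed low. Of 23 tested suprabasal and early differentiation genes, 22 rose, 0 fell and 1 was not called (median log2 fold change 2.49). Of 34 tested cornified envelope and late differentiation genes, 28 rose, 0 fell and 6 were not called (median 2.48). Without both libraries that stood apart, 22 and 27 were called higher. Krt10, the type I keratin of the suprabasal layers, was at 41.7, 25.6 and 22.01 CPM at 24 h and 1299.7, 542 and 609 CPM at 72 h (log2 fold change 4.78 ± 0.44 (SE), adjusted p = 1.86e-09). The 72 h replicate 1 held more than the other two 72 h libraries, and the lowest of the 3 was 12.98 times the highest 24 h library. Krt1, its type II partner, was at 38.6, 19.2 and 13.8 CPM at 24 h and 476, 435 and 386 CPM at 72 h (log2 fold change 4.18 ± 0.52 (SE), adjusted p = 5.28e-07), with the 72 h libraries close to each other. Calml3, a calmodulin-like protein of differentiating epithelia, was at 0.916, 0.201 and 0.0937 CPM at 24 h and 16.2, 11.8 and 5.7997 CPM at 72 h (log2 fold change 4.94 ± 0.55 (SE), adjusted p = 6.84e-08). Of these suprabasal genes, Krtdap was the one not called (882 ± 765 to 2638 ± 2048 CPM, log2 fold change 1.58, adjusted p = 0.0998). Klk7, a protease that sheds corneocytes, rose from 4.27 ± 0.338 to 33.5 ± 16.6 CPM (2.97, adjusted p = 4.03e-08), and the Notch receptor Notch3 from 0.713 ± 0.191 to 4.102 ± 0.598 CPM (2.49, adjusted p = 2.83e-07).

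Among the genes of the cornified envelope, the transglutaminases, which crosslink it, rose together. Tgm3 was at 29.2, 28.6 and 20.2 CPM at 24 h and 506, 483 and 461 CPM at 72 h (log2 fold change 4.22 ± 0.21 (SE), adjusted p = 2.39e-14). Tgm1 and Tgm5 rose from 10.5 ± 2.87 to 128 ± 25.4 CPM and from 4.95 ± 0.3805 to 38.7 ± 7.13 CPM. For Tgm3 all 3 libraries of each time lay close together. Casp14, the protease that processes filaggrin, was at 3.24, 3.66 and 5.43 CPM at 24 h and 64.01, 57.4 and 49.8 CPM at 72 h (log2 fold change 3.78 ± 0.22 (SE), adjusted p = 3.59e-13). Flg, which encodes filaggrin itself, was at 0.282, 0.552 and 0 CPM at 24 h and 11.5, 4.696 and 3.55 CPM at 72 h (log2 fold change 4.55 ± 0.76 (SE), adjusted p = 4.28e-05). Lor, the main envelope protein loricrin, rose from 2.06 ± 0.463 to 11.8 ± 9.23 CPM, and both stayed low in absolute terms. Alox12b, a lipoxygenase of the lipid envelope, rose from 3.16 ± 0.4599 to 39.6 ± 14.3 CPM (3.65, adjusted p = 3.14e-10), and the proline-rich Sprr1a from 264 ± 73.4 to 2003 ± 752 CPM (2.92, adjusted p = 1.4e-07). The 6 that were not called included Ivl, the early envelope precursor involucrin (11.8 ± 2.85 to 14.7 ± 8.09 CPM, log2 fold change 0.32, adjusted p = 0.432). Abca12, a lipid transporter (-0.05, adjusted p = 0.936), and Spink5, a protease inhibitor (0.24, adjusted p = 0.728), were among them too. The Sprr and Lce genes are families of near-identical copies, whose reads the counting may have split, so values of single members are uncertain.

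Keratins of the basal and injured epidermis were also higher. Of 7 tested, 6 rose and Krt5 was not called (0.40, adjusted p = 0.102). Krt6b, a keratin of wounded and hyperproliferative epidermis, was at 1224, 951 and 805 CPM at 24 h and 9974, 9742 and 7729 CPM at 72 h (log2 fold change 3.20 ± 0.21 (SE), adjusted p = 1.77e-12). Krt16, its partner, was at 2734, 2248 and 1874 CPM at 24 h and 8874, 7444 and 7219.8 CPM at 72 h (log2 fold change 1.78 ± 0.16 (SE), adjusted p = 1.66e-09). Krt15, a keratin of basal and stem cells, was at 674, 532 and 328 CPM at 24 h and 2762, 1699 and 1711 CPM at 72 h (log2 fold change 2.01 ± 0.26 (SE), adjusted p = 6.51e-07). All 3 were separated between the times. With Krt5, Krt14 and Krt6a (11638 ± 792 to 22803 ± 1857 CPM, 0.97, adjusted p = 1.06e-06), the 5 genes with the most counts were completed by the elongation factor Eef1a1 (0.60, adjusted p = 0.000462) and Rn18s-rs5, an 18S ribosomal RNA sequence that ranged from 5001 to 39227 CPM and was not called (0.67, adjusted p = 0.428).

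Of 14 tested desmosome genes, 10 rose, 0 fell and 4 were not called (median 1.01, with 6 called higher without TMM factors). Among those that rose were the isoforms of the suprabasal layers and Pkp2, a plakophilin best known from heart muscle and simple epithelia. Pkp2 was at 0.423, 0.402 and 0.187 CPM at 24 h and 7.93, 5.03 and 3.7998 CPM at 72 h (log2 fold change 4.05 ± 0.45 (SE), adjusted p = 7.01e-08). The desmosomal cadherins Dsg1a and Dsc1 rose from 1.51 ± 0.531 to 12.5 ± 3.19 CPM (3.05, adjusted p = 3.28e-06) and from 1.41 ± 0.922 to 13.8 ± 5.96 CPM (3.25, adjusted p = 0.000342). The basal cadherin Dsg3 (-0.33, adjusted p = 0.402), Dsc3 (0.04, adjusted p = 0.966) and the plaque protein Dsp (0.10, adjusted p = 0.866) were not called. Pkp1, the main plakophilin of the suprabasal epidermis, rose from 945 ± 36.1 to 2181 ± 345 CPM (1.21, adjusted p = 4.88e-09). Perp, a p53 target and desmosome component, was at 799, 1015 and 935 CPM at 24 h and 2140.0, 2212 and 2534 CPM at 72 h (log2 fold change 1.32 ± 0.16 (SE), adjusted p = 1.8e-07).

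Of 17 tested barrier S100 and antimicrobial genes, 9 rose, 0 fell and 8 were not called (median 1.19, with 6 called in a fit of only the 6 libraries). Stfa1, a stefin that inhibits cysteine proteases and has near-identical copies, was at 14.6, 2.11 and 0.937 CPM at 24 h and 31.9, 160.3 and 33.05 CPM at 72 h (log2 fold change 3.71 ± 0.94 (SE), adjusted p = 0.00379). The defensin Defb4 was at 0.846, 0.0502 and 0 CPM at 24 h and 5.79, 20.3 and 4.25 CPM at 72 h (log2 fold change 5.29 ± 1.06 (SE), adjusted p = 0.00036). For both, each library that stood apart was the highest of its group. Lcn2, an iron-binding antibacterial protein, rose from 1.31 ± 0.637 to 8.44 ± 4.598 CPM (2.70, adjusted p = 0.00256), and S100a9, a subunit of calprotectin, from 42.7 ± 47.1 to 218 ± 89.99 CPM (2.35, adjusted p = 0.0293).

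Of 30 tested transcription factors of keratinocyte fate, 14 rose, 4 fell and 12 were not called (median 0.59), with 2 lower when the 72 h replicate 2 or 3 or the 24 h replicate 2 or 3 was left out. Those that rose included Grhl3, a driver of late differentiation, at 6.204, 10.7 and 7.12 CPM at 24 h and 60.2, 60.4 and 60.7 CPM at 72 h (log2 fold change 2.91 ± 0.21 (SE), adjusted p = 1.7e-11). Its 72 h libraries lay within 1.01-fold of each other. Elf3, an Ets factor of differentiated epithelia, was at 8.25, 8.33 and 7.45 CPM at 24 h and 70.2, 93.005 and 63.5 CPM at 72 h (log2 fold change 3.24 ± 0.17 (SE), adjusted p = 2.89e-14). Ovol1, which restrains cycling in suprabasal cells, was at 14.5, 11.5 and 11.6 CPM at 24 h and 69.1, 108 and 71.996 CPM at 72 h (log2 fold change 2.72 ± 0.17 (SE), adjusted p = 5.2e-13). Zfp750 and Klf4, which act in terminal differentiation, rose from 7.02 ± 0.634 to 42.5 ± 4.65 CPM and from 151 ± 38.2 to 407 ± 52.95 CPM. Those that fell were Ets1, Sox9, Cdx2 and Sox2. Ets1, which is known to restrain differentiation in the basal layer, was at 8.53, 13.8 and 16.6 CPM at 24 h and 2.87, 2.26 and 1.9999 CPM at 72 h (log2 fold change -2.45 ± 0.27 (SE), adjusted p = 7.8e-08). Sox9, a factor of hair follicle progenitors, was at 24.5, 29.3 and 32.03 CPM at 24 h and 8.11, 13.3 and 9.799 CPM at 72 h (log2 fold change -1.47 ± 0.20 (SE), adjusted p = 1.7e-06).

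The other leading genes by the naming rule were of mixed function. Selenbp1, a selenium-binding protein with methanethiol oxidase activity (chr3:94840334-94852203, plus strand), was at 2.89, 1.91 and 1.59 CPM at 24 h and 317, 296 and 224 CPM at 72 h (log2 fold change 7.05 ± 0.40 (SE), adjusted p = 1.59e-13). The nearest libraries of the groups were 77.5-fold apart. Tdh, the mitochondrial threonine dehydrogenase, was at 0.352, 0.251 and 0.187 CPM at 24 h and 16.4, 17.7 and 16.2 CPM at 72 h (log2 fold change 5.999 ± 0.53 (SE), adjusted p = 9.67e-10). Nxph4, a secreted neurexophilin, was at 0.564, 0.602 and 0.234 CPM at 24 h and 22.7, 34.97 and 15.7 CPM at 72 h (log2 fold change 5.72 ± 0.52 (SE), adjusted p = 1.36e-09). Pla2g2f, a secreted phospholipase of the suprabasal epidermis, was at 0.282, 0.0502 and 0.187 CPM at 24 h and 10.4, 15.2 and 7.5996 CPM at 72 h (log2 fold change 6.01 ± 0.46 (SE), adjusted p = 5.74e-11), its 24 h level resting on few reads. Serpinb3a, a squamous cell protease inhibitor, was at 3.45, 0.653 and 1.08 CPM at 24 h and 92.1, 82.6 and 83.995 CPM at 72 h (log2 fold change 5.70 ± 0.46 (SE), adjusted p = 1.85e-10), but Serpinb3 genes are near-identical copies and its level is uncertain. The gene named X2610528A11Rik in the deposited table was at 8.25, 3.26 and 1.08 CPM at 24 h and 337, 406 and 222 CPM at 72 h (log2 fold change 6.29 ± 0.55 (SE), adjusted p = 8.57e-10).

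**Figure D2:**
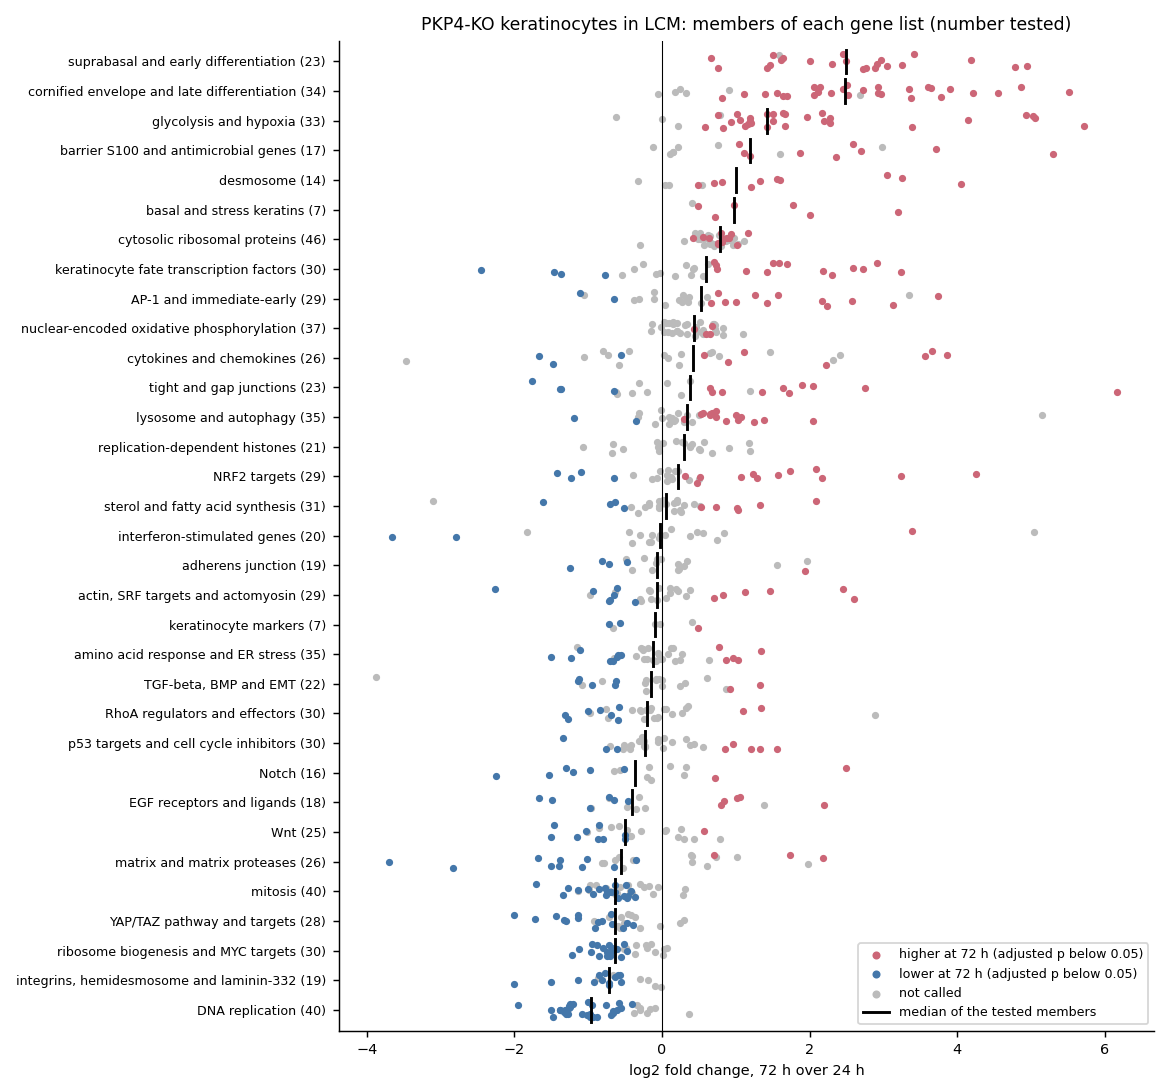
Log2 fold change at 72 h over 24 h in PKP4-KO keratinocytes in LCM for the tested members of each gene list (points, red where called higher, blue where called lower, grey where not called), with the median of each list as a black line, lists sorted by median and the number tested in brackets. Medians ran from -0.96 (DNA replication, 32 of 40 lower) to 2.49 (suprabasal and early differentiation, 22 of 23 higher).

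Genes of the cell cycle moved the other way. Of 40 tested DNA replication genes, 32 fell, 0 rose and 8 were not called (median -0.96), with 28 lower without both libraries that stood apart and 24 in a fit of only the 6 libraries. Cdc6, which loads the replicative helicase, was at 19.2, 27.3 and 27.6 CPM at 24 h and 6.34, 4.86 and 7.85 CPM at 72 h (log2 fold change -1.95 ± 0.21 (SE), adjusted p = 4.04e-08). Rrm2, the regulated subunit of ribonucleotide reductase, was at 278, 353 and 333 CPM at 24 h and 88.9, 116 and 134 CPM at 72 h (log2 fold change -1.51 ± 0.14 (SE), adjusted p = 3.36e-09). Mcm10, which starts fork firing, was at 31.4, 38.9 and 40.4 CPM at 24 h and 15.3, 9.896 and 14.3 CPM at 72 h (log2 fold change -1.48 ± 0.18 (SE), adjusted p = 4.9e-07). The groups did not overlap for any of the 3. The helicase subunits Mcm2 to Mcm7 fell by between 1.08 and 1.30 on the log2 scale. Ccne1, the cyclin of the start of S phase, fell from 44.4 ± 2.37 to 17.7 ± 2.15 CPM (-1.33, adjusted p = 1.31e-07). E2f1, a transcription factor of S phase genes, fell from 72.7 ± 8.49 to 30.7 ± 6.78 CPM (-1.24, adjusted p = 1.57e-05). Pcna, the polymerase clamp, was not called (-0.34, adjusted p = 0.0554), and neither were Gins1, Gins2, Orc6, Rfc4, Prim1, Tk1 and E2f2.

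Of 40 tested mitosis genes, 21 fell, 0 rose and 19 were not called (median -0.63). This count was 17 without both libraries that stood apart and 7 in a fit of only the 6 libraries. Kif23, a kinesin of the central spindle, was at 36.2, 59.4 and 60.3 CPM at 24 h and 25.97, 11.7 and 23.8 CPM at 72 h (log2 fold change -1.34 ± 0.30 (SE), adjusted p = 0.00138). Hmmr, a spindle protein, was at 16.1, 21.99 and 22.8 CPM at 24 h and 10.5, 8.64 and 6.1996 CPM at 72 h (log2 fold change -1.27 ± 0.31 (SE), adjusted p = 0.00266). Aspm, which organises spindle poles, fell from 7.28 ± 3.67 to 2.22 ± 1.15 CPM (-1.71, adjusted p = 0.00395, a call lost without the 24 h replicate 3). The proliferation marker Mki67 fell from 20.5 ± 6.95 to 9.28 ± 2.29 CPM and Cdk1, the mitotic kinase, from 311 ± 15.8 to 243 ± 5.07 CPM. Of 30 tested p53 targets and cell cycle inhibitors, 5 rose, 3 fell and 22 were not called. These counts were near the shares of all tested genes, 12.4% higher and 13.7% lower. In this list the number that fell was 14 without TMM factors. It was 6 when the 24 h replicate 1 was left out and 5 when the 72 h replicate 2 was. Cdkn1c, an inhibitor of cyclin-dependent kinases, was at 2.61, 3.71 and 4.45 CPM at 24 h and 12.7, 7.296 and 11.999 CPM at 72 h (log2 fold change 1.56 ± 0.29 (SE), adjusted p = 0.000168). Its relative Cdkn1a rose from 331 ± 77.8 to 643 ± 264 CPM (0.96, adjusted p = 0.00828). Ccnd1, the cyclin of the growth factor response, was at 385, 469 and 496 CPM at 24 h and 170.0, 162 and 201 CPM at 72 h (log2 fold change -1.34 ± 0.12 (SE), adjusted p = 6.78e-10), without overlap. Of 21 tested replication-dependent histone genes, whose transcripts largely lack the poly(A) tails that the libraries were selected for, 0 were called in edgeR's test (median 0.29). At an unadjusted p below 0.05 there was 1 lower, and 1 was called lower by DESeq2, without the 72 h replicate 1 and without the 24 h replicate 1. Without TMM factors, with the offset for gene length and with a replicate block over all 36 libraries, 1 was called lower too. The median was -0.06 without both libraries that stood apart and -0.10 without TMM factors. It was -0.36 without the 72 h replicate 2 and -0.20 with the offset for gene length.

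The letters TTTCCCGC or TTTGGCGC on either strand, forms of the E2F site, were present in 12 of 40 promoters of the DNA replication list (30.0%) and in 2.83% of all 12552. Of the 3 members with the sharpest fall, Cdc6 held a match in this window, given in capitals in its sequence, and Rrm2 and Mcm10 held none.
Cdc6, chr11:98798377-98798676, plus strand: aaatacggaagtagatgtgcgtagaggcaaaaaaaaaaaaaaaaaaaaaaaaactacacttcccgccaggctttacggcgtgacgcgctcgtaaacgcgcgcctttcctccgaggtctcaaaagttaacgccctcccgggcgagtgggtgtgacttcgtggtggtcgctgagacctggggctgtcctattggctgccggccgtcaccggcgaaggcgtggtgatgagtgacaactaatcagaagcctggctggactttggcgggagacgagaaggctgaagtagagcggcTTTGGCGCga
These letters were also chosen with the results known, and no match says only that they are not in this window.

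Genes of attachment to the basement membrane were lower. Of 19 tested integrin, hemidesmosome and laminin genes, 13 fell, 0 rose and 6 were not called (median -0.71), with 11 lower without both libraries that stood apart and 3 in a fit of only the 6 libraries. The count was 8 without the 72 h replicate 1, 7 without the 72 h replicate 2 or the 24 h replicate 2, and 5 without the 24 h replicate 3. Lamb1, a laminin chain, was at 9.09, 10.04 and 16.4 CPM at 24 h and 4.02, 4.19 and 4.2998 CPM at 72 h (log2 fold change -1.51 ± 0.19 (SE), adjusted p = 4.9e-07). Itgb6, an integrin subunit of migrating keratinocytes, was at 7.83, 8.79 and 11.8 CPM at 24 h and 3.96, 4.696 and 4.25 CPM at 72 h (log2 fold change -1.14 ± 0.20 (SE), adjusted p = 9.45e-05). Itga3, the receptor subunit for laminin-332, fell from 225 ± 39.4 to 124 ± 14.8 CPM (-0.86, adjusted p = 1.64e-05), and the laminin-332 chains Lama3 and Lamb3 fell by 0.55 and 0.72. The hemidesmosome linker Dst was called lower (-0.92, adjusted p = 0.0407), a call lost under 8 of 15 alternatives, including without both libraries that stood apart. Itgb4, its integrin partner, was not called (-0.10, adjusted p = 0.685), nor was Itga6 (-0.66, adjusted p = 0.116).

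Of 26 tested matrix genes and matrix proteases, 10 fell, 3 rose and 13 were not called (median -0.56). Timp3, an inhibitor of matrix proteases (chr10:86136236-86185371, plus strand), was at 149.7, 210.3 and 312 CPM at 24 h and 21.5, 32.1 and 40.4 CPM at 72 h (log2 fold change -2.84 ± 0.36 (SE), adjusted p = 5.38e-07). The matrix protein Thbs1 was at 5.01, 8.74 and 22.1 CPM at 24 h and 0.671, 0.503 and 1.45 CPM at 72 h (log2 fold change -3.70 ± 0.52 (SE), adjusted p = 3.64e-06), with a 4.42-fold range among the 24 h libraries, the lowest of which was 3.45 times the highest 72 h library. Timp1, Timp2, Tnc, Sparc and Plaur also fell, by between 1.02 and 1.68. Mmp2, a gelatinase, rose from 4.19 ± 1.04 to 13.9 ± 0.745 CPM (1.73, adjusted p = 2.69e-05).

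Of 28 tested genes of the YAP/TAZ pathway, which senses density and tension, 15 fell, 0 rose and 13 were not called (median -0.63), with 16 lower without both libraries that stood apart, 4 in a fit of only the 6 libraries and 7 without the 24 h replicate 3. Axl, a receptor kinase and pathway target, was at 97.6, 121 and 156 CPM at 24 h and 24.8, 32.96 and 35.2 CPM at 72 h (log2 fold change -2.01 ± 0.15 (SE), adjusted p = 6.46e-11). Amotl2, a feedback regulator, was at 10.4, 21.8 and 30.3 CPM at 24 h and 6.89, 3.86 and 8.05 CPM at 72 h (log2 fold change -1.72 ± 0.30 (SE), adjusted p = 7.17e-05). Dock5, a guanine exchange factor, was at 13.3, 14.1 and 17.7 CPM at 24 h and 4.45, 6.79 and 5.3997 CPM at 72 h (log2 fold change -1.44 ± 0.21 (SE), adjusted p = 4.9e-06). Libraries did not overlap for these. Ccn1 fell from 6.64 ± 3.43 to 3.67 ± 0.624 CPM (-0.86, adjusted p = 0.0206), whereas Ccn2, the other classical target, was low and not called (1.15 ± 0.844 to 0.5702 ± 0.572 CPM, log2 fold change -0.93, adjusted p = 0.188).

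Changes in the actin and junction lists went both ways. Of 29 tested actin, SRF target and actomyosin genes, 6 rose and 7 fell, or 13 fell without TMM factors (median -0.07). Actg1, cytoplasmic gamma actin, was at 553, 761 and 654 CPM at 24 h and 1693, 1596 and 2123 CPM at 72 h (log2 fold change 1.46 ± 0.21 (SE), adjusted p = 4.67e-06). The nonmuscle myosin heavy chain Myh14 was at 13.5, 12.9 and 10.1 CPM at 24 h and 94.6, 40.8 and 65.1 CPM at 72 h (log2 fold change 2.46 ± 0.28 (SE), adjusted p = 7.63e-08). The calponin Cnn2 rose from 1.43 ± 0.511 to 8.55 ± 2.54 CPM (2.60, adjusted p = 4.14e-09), and Srf, Vcl, Actn1, Tpm1 and Flna fell by between 0.60 and 0.93. Of 30 tested RhoA regulators and effectors, 2 rose (1 when the 72 h replicate 1 or 3 or the 24 h replicate 1 or 2 was left out), 7 fell and 21 were not called (median -0.20), with 11 lower without TMM factors and 4 lower without the 24 h replicate 3. Rhob was at 21.4, 28.4 and 28.8 CPM at 24 h and 66.3, 73.1 and 60.4 CPM at 72 h (log2 fold change 1.34 ± 0.15 (SE), adjusted p = 6.88e-08). The GTPase activating protein Dlc1 fell from 13.4 ± 3.36 to 5.35 ± 1.69 CPM (-1.32, adjusted p = 5.28e-05), and the formin Diaph3 from 18.8 ± 6.77 to 7.75 ± 1.56 CPM (-1.28, adjusted p = 0.00591, a call lost without the 24 h replicate 3). Rhoa itself (0.14, adjusted p = 0.359), Arhgap23 (0.03, adjusted p = 0.919) and Arhgef2 (-0.29, adjusted p = 0.128) were not called. Of 19 tested adherens junction genes, Nectin4 rose (8.096 ± 2.46 to 30.9 ± 7.29 CPM, log2 fold change 1.94, adjusted p = 8.3e-07) and 4 fell (7 without TMM factors, 2 without the 24 h replicate 3), among them the P-cadherin Cdh3 (94.2 ± 19.2 to 53.6 ± 6.39 CPM, log2 fold change -0.81, adjusted p = 6.06e-05) and Ctnnal1 (75.9 ± 22.9 to 31.9 ± 5.78 CPM, log2 fold change -1.25, adjusted p = 0.000462).

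Of 23 tested tight and gap junction genes, 10 rose, 4 fell and 9 were not called (median 0.38). The counts were 5 and 6 without TMM factors. The connexin Gjb2 was at 28.97, 20.4 and 20.04 CPM at 24 h and 88.1, 113 and 84.7 CPM at 72 h (log2 fold change 2.04 ± 0.21 (SE), adjusted p = 1.6e-08) and the claudin Cldn4 at 8.39, 8.43 and 7.77 CPM at 24 h and 28.9, 39.2 and 23.6 CPM at 72 h (log2 fold change 1.90 ± 0.18 (SE), adjusted p = 3.14e-09). Cgn, which links tight junctions to actin, rose from 1.81 ± 0.381 to 5.59 ± 2.17 CPM (1.64, adjusted p = 2.93e-05).

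Of 29 tested AP-1 and immediate-early genes, 12 rose, 2 fell (1 without the 72 h replicate 1 or the 24 h replicate 2 or 3) and 15 were not called (median 0.53). Maff, a small Maf factor, was at 9.52, 12.2 and 10.3 CPM at 24 h and 121, 94.3 and 65.996 CPM at 72 h (log2 fold change 3.13 ± 0.24 (SE), adjusted p = 5.18e-11). The phosphatase Dusp1, which switches off MAP kinases, was at 5.99, 5.17 and 6.14 CPM at 24 h and 34.7, 35.4 and 32.5 CPM at 72 h (log2 fold change 2.57 ± 0.18 (SE), adjusted p = 1.29e-11). Fos rose from 6.62 ± 1.55 to 29.9 ± 2.86 CPM (2.17, adjusted p = 6.68e-07). Ier3, a stress gene, rose as well (152 ± 68.7 to 718 ± 355 CPM, log2 fold change 2.24, adjusted p = 0.000192), with each library that stood apart the highest of its group. Of 18 tested EGF receptor and ligand genes, 5 rose and 6 fell, while 1 rose and 8 fell without TMM factors, and 3 fell without the 24 h replicate 3. The receptor Erbb3 was at 5.08, 4.37 and 5.57 CPM at 24 h and 22.6, 21.6 and 24.3 CPM at 72 h (log2 fold change 2.19 ± 0.17 (SE), adjusted p = 9.07e-11). The ligand Epgn rose from 88.3 ± 21.9 to 184 ± 9.904 CPM (1.06, adjusted p = 0.000805), and Egfr fell from 16.4 ± 4.97 to 9.94 ± 1.85 CPM (-0.72, adjusted p = 0.00465). The neuregulin Nrg2 was at 49.98, 92.9 and 87.2 CPM at 24 h and 29.5, 14.1 and 28.5 CPM at 72 h (log2 fold change -1.67 ± 0.29 (SE), adjusted p = 6.4e-05). Lrig1, an inhibitor of the receptors and stem cell marker, was at 15.9, 16.4 and 20.5 CPM at 24 h and 4.21, 8.64 and 6.0996 CPM at 72 h (log2 fold change -1.49 ± 0.22 (SE), adjusted p = 5.64e-06).

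In the Notch list, 2 of 16 tested genes rose (1 without the 24 h replicate 1 or the 72 h replicate 1 or 3) and 6 fell (median -0.36). The ligands Jag1 and Dll1 fell from 61.02 ± 24.3 to 21.2 ± 5.21 CPM (-1.52, adjusted p = 0.000195) and from 25.02 ± 11.5 to 10.1 ± 2.43 CPM (-1.31, adjusted p = 0.000701), and Dtx4, a pathway regulator, from 5.94 ± 1.65 to 1.25 ± 0.151 CPM (-2.25, adjusted p = 1.05e-07). In the Wnt list, 1 of 25 rose (0 without the 24 h replicate 2) and 9 fell (median -0.50), with 1 lower in a fit of only the 6 libraries, 5 without the 72 h replicate 1 or the 24 h replicate 2, and 4 without the 24 h replicate 3. Those that fell included the ubiquitin ligase Znrf3 (7.51 ± 3.06 to 2.65 ± 0.928 CPM, log2 fold change -1.51, adjusted p = 0.000876) and the receptor Lgr4, whose libraries overlapped and whose call was lost under 6 of 15 alternatives (-1.03, adjusted p = 0.0183). In the TGF-beta, BMP and EMT list, 2 of 22 rose and 5 fell (median -0.15), beside 12.4% and 13.7% of all tested genes. The number lower was 8 without TMM factors and 3 without the 72 h replicate 1 or the 24 h replicate 3. Id3, a target of BMP signals, was at 49.1, 53.2 and 54.3 CPM at 24 h and 21.6, 26.4 and 23.05 CPM at 72 h (log2 fold change -1.14 ± 0.15 (SE), adjusted p = 9.97e-07). Pmepa1, a feedback inhibitor, fell from 49.6 ± 4.34 to 22.8 ± 7.75 CPM. The matrix protein Tgfbi was at 89.96, 90.2 and 94.9 CPM at 24 h and 239.8, 233 and 216 CPM at 72 h (log2 fold change 1.32 ± 0.13 (SE), adjusted p = 8.44e-09).

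Of 26 tested cytokine and chemokine genes, 7 rose, 3 fell and 16 were not called (median 0.41, with 4 higher and 6 lower without TMM factors). The sharpest rises by the naming rule were in alarmins of the epidermis. Il33 was at 3.31, 3.61 and 2.34 CPM at 24 h and 32.7, 34.8 and 41.998 CPM at 72 h (log2 fold change 3.57 ± 0.25 (SE), adjusted p = 1.29e-11), Tslp at 1.97, 2.01 and 0.749 CPM at 24 h and 14.5, 27.5 and 17.1 CPM at 72 h (log2 fold change 3.66 ± 0.38 (SE), adjusted p = 2.24e-08) and Il18 at 5.43, 3.16 and 0.8898 CPM at 24 h and 42.8, 48.8 and 42.8 CPM at 72 h (log2 fold change 3.86 ± 0.39 (SE), adjusted p = 9.55e-09). The nearest libraries of the groups were 9.06-fold apart for Il33, 7.23-fold for Tslp and 7.88-fold for Il18. Il1rn, the interleukin 1 receptor antagonist, rose from 7.87 ± 1.603 to 36.6 ± 5.15 CPM (2.22, adjusted p = 1.13e-10), and the neutrophil chemokine Cxcl5 fell from 155 ± 43.3 to 48.5 ± 9.16 CPM (-1.67, adjusted p = 1.99e-05). Of 20 tested interferon-stimulated genes, 1 rose, 2 fell and 17 were not called. These counts were below the shares of all tested genes, 12.4% higher and 13.7% lower. The number that fell was 6 without TMM factors, 1 without the 72 h replicate 2 or without both libraries that stood apart, and 0 without the 24 h replicate 3 or in a fit of only the 6 libraries. The number that rose was 2 without the 72 h replicate 1 or the 24 h replicate 2, and 3 by DESeq2. The one that rose was Isg20, an exonuclease, at 5.85, 4.62 and 3.6998 CPM at 24 h and 80.8, 39.3 and 27.2 CPM at 72 h (log2 fold change 3.38 ± 0.35 (SE), adjusted p = 1.6e-08).

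In the main fit, the lists of ribosomal proteins and of ribosome biogenesis were called in different directions. Of 46 tested cytosolic ribosomal protein genes, 14 rose, 0 fell and 32 were not called (median 0.78). Without both libraries that stood apart 17 were called, and 27 without the 24 h replicate 1 alone, while 7 were called when the 72 h replicate 1 was left out, and 9 without the 24 h replicate 3 or without TMM factors. In a fit of only the 6 libraries 0 were called, with 16 higher at an unadjusted p below 0.05, and DESeq2 called 17 higher. The share of counts on the list was 14.1%, 10.3% and 9.69% at 24 h and 16.3%, 14.6% and 12.8% at 72 h, so that the 24 h replicate 1 lay within the 72 h range. Rps6 was at 4529, 3450.0 and 3015 CPM at 24 h and 9081, 6129.7 and 5831 CPM at 72 h (log2 fold change 0.94 ± 0.21 (SE), adjusted p = 0.00112), and Rps7 and Rps3 rose by 1.16 and 1.02, calls that were lost without the 24 h replicate 3. Ribosomal protein genes have many processed copies, and their values are uncertain. Of 30 tested genes of ribosome biogenesis and MYC targets, 19 fell, 0 rose and 11 were not called (median -0.63), with 15 lower without both libraries that stood apart and 6 in a fit of only the 6 libraries. Cad, which starts pyrimidine synthesis, was at 226, 338 and 329 CPM at 24 h and 101, 128 and 156 CPM at 72 h (log2 fold change -1.22 ± 0.20 (SE), adjusted p = 2.91e-05). The nucleolar protein Ncl was at 1699, 1003 and 1112 CPM at 24 h and 765, 480.0 and 502 CPM at 72 h (log2 fold change -1.13 ± 0.21 (SE), adjusted p = 0.000139). Dkc1, a component of box H/ACA particles, fell by 0.96, a call lost under 4 of 15 alternatives.

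Of 37 tested nuclear-encoded oxidative phosphorylation genes, 5 rose and 32 were not called (median 0.44). The number that rose was near the share over all tested genes, 12.4%. Without TMM factors 0 were called higher and 3 lower. Without the 72 h replicate 1 or the 24 h replicate 3, 2 were called higher. In a fit of only the 6 libraries 0 were called, with 7 higher at an unadjusted p below 0.05, and DESeq2 called 7 higher. Those named by the rule were Ndufv2, Ndufb5 and Atp5pb, which rose by between 0.60 and 0.68. Of 31 tested sterol and fatty acid synthesis genes, 6 rose and 4 fell, beside 12.4% and 13.7% of all tested genes. Their median was 0.06, and -0.32 without TMM factors, with 2 lower without the 24 h replicate 3. The malic enzyme Me1 was at 5.22, 8.89 and 6.93 CPM at 24 h and 32.2, 22.9 and 34.2 CPM at 72 h (log2 fold change 2.08 ± 0.23 (SE), adjusted p = 6.43e-08). The mevalonate pathway enzyme Mvd rose from 14.2 ± 1.99 to 35.6 ± 2.22 CPM (1.33, adjusted p = 2.07e-07). The fatty acid elongase Elovl6 fell from 8.57 ± 1.87 to 2.802 ± 0.903 CPM (-1.61, adjusted p = 0.00199). Of 35 tested genes of the amino acid response and ER stress, 5 rose and 8 fell (median -0.13), or 3 rose and 16 fell without TMM factors, with 3 higher without the 72 h replicate 1 or the 24 h replicate 2. The transporters of neutral amino acids and cystine Slc1a5, Slc7a5 and Slc7a11 fell by between 1.11 and 1.499. Nupr1, a stress factor, rose (26.7 ± 10.3 to 67.4 ± 23.8 CPM, log2 fold change 1.34, adjusted p = 0.0294), a call lost under 4 of 15 alternatives, among them without the 72 h replicate 1.

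Of 29 tested NRF2 targets, 12 rose, 4 fell and 13 were not called (median 0.21, and -0.16 without TMM factors). The glutathione transferases Gsta1 and Gsta2 were at 24.4, 16.8 and 10.96 CPM at 24 h and 215, 140.3 and 135 CPM at 72 h (log2 fold change 3.24 ± 0.27 (SE), adjusted p = 2.15e-10) and at 2.397, 0.552 and 0.328 CPM at 24 h and 19.8, 20.8 and 17.4 CPM at 72 h (log2 fold change 4.25 ± 0.63 (SE), adjusted p = 6.8e-06), but are near-identical copies. The carbonyl reductase Cbr3 rose from 3.95 ± 0.539 to 17.7 ± 3.42 CPM (2.16, adjusted p = 1.02e-06) and Hmox1, heme oxygenase, from 49.4 ± 7.68 to 164 ± 28.8 CPM (1.73, adjusted p = 1.69e-07). Txnrd1, thioredoxin reductase, and Gclc, the limiting enzyme of glutathione synthesis, fell by 1.43 and 1.09. Of 35 tested lysosome and autophagy genes, 15 rose, 2 fell (1 when any single library but the 72 h replicate 1 was left out) and 18 were not called (median 0.33, and -0.01 with 8 higher and 4 lower without TMM factors). Gpnmb and the proton pump subunit Atp6v0d1 rose from 11.9 ± 3.25 to 49.4 ± 11.5 CPM and from 53.8 ± 2.18 to 128 ± 7.47 CPM.

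The genes that fell most by the naming rule, beside Timp3, Thbs1 and Ets1, were Ces1g, Klra4, Txnip, Lrrc8c and Hpdl. Ces1g, a carboxylesterase, was at 30.5, 23.6 and 27.1 CPM at 24 h and 0.793, 1.51 and 1.45 CPM at 72 h (log2 fold change -4.43 ± 0.42 (SE), adjusted p = 5.54e-09). Txnip, an inhibitor of glucose uptake that is induced by glucose, was at 5.78, 8.99 and 18.9 CPM at 24 h and 2.26, 1.09 and 1.1999 CPM at 72 h (log2 fold change -2.88 ± 0.38 (SE), adjusted p = 1.06e-06), with a 3.27-fold range at 24 h. Klra4, named for the lectin-like receptors of natural killer cells, was at 13.7, 15.7 and 19.5 CPM at 24 h and 2.19, 1.59 and 2.3999 CPM at 72 h (log2 fold change -2.96 ± 0.17 (SE), adjusted p = 3.29e-13) while the immune markers summed to at most 1.1999 CPM. Lrrc8c, a volume-regulated anion channel subunit, was at 12.8, 18.3 and 29.7 CPM at 24 h and 3.66, 2.94 and 3.55 CPM at 72 h (log2 fold change -2.58 ± 0.22 (SE), adjusted p = 3.61e-10). Hpdl, a dioxygenase, fell from 10.2 ± 0.837 to 2.1004 ± 0.304 CPM (-2.28, adjusted p = 5.68e-05). Ces1g and Klra4 belong to gene clusters with close copies, so their values are uncertain. Sequencing was strand-specific, but the strand setting of the counting is not given in the sources used here, so values of genes that overlap or run antisense to another gene are uncertain too.

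The change with time in PKP4-KO cells in LCM was then set beside that in WT cells in LCM, in Rescue cells in LCM and in PKP4-KO cells in HCM. These comparisons share no library. In Rescue in LCM, the deviations from the group means of the 72 h replicate 2 and the 24 h replicate 3 correlated at 0.77. For the PKP4-KO pair that stood apart this correlation was 0.68. Both Rescue libraries were kept in all fits that used Rescue. In WT cells 1505 genes were called (9.96%), in Rescue cells 1482 (9.81%) and in PKP4-KO cells in HCM 8427 (55.8%). Of the 3952 calls in PKP4-KO LCM, 948 were shared in direction with WT (24.0%, and 63.0% of the WT calls), 969 with Rescue (24.5%, and 65.4% of the Rescue calls) and 3334 with HCM (84.4%, and 39.6% of the HCM calls). Opposite directions were found for 38, 28 and 32 genes. The difference between the changes with time was tested for each gene. Where a list had 0 genes in one direction of it, 0 passed an unadjusted p below 0.05 in that direction and DESeq2 called 0, unless stated and apart from 1 suprabasal gene at the unadjusted p against WT and against Rescue. Against WT it was more positive in PKP4-KO for 519 genes (3.43%) and more negative for 275 (1.82%), and against Rescue for 400 (2.65%) and 394 (2.61%), a total that dropped to 493 without the 24 h replicate 3. Between LCM and HCM it was more positive in LCM for 995 genes (6.58%) and more negative for 672 (4.45%). That total was 976 without the 72 h replicate 3, 932 without the 24 h replicate 1 and 5387 without TMM factors.

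Of 33 glycolysis and hypoxia genes, 25 had a more positive change in PKP4-KO cells than in WT and 0 a more negative one (median change 1.42 in PKP4-KO and 0.31 in WT). Against Rescue, 13 rose more and 0 less (median 0.61 in Rescue), and against PKP4-KO in HCM, 4 rose more and 0 less (median 1.12, with 2 less at an unadjusted p below 0.05 and 1 less by DESeq2). Without TMM factors 21 rose more than in HCM and 7 more than in Rescue. In a fit of only the libraries compared, the number above WT was 16 and that above Rescue 7, and the numbers above HCM were 2 without both libraries that stood apart, without the 72 h replicate 1 or without the 24 h replicate 3. Egln3 was at 8.91 ± 0.672 CPM at 24 h and 19.96 ± 1.23 CPM at 72 h in WT. It was at 25.6 ± 1.97 CPM and 118 ± 22.8 CPM in Rescue. It rose by 1.16 in WT and 2.20 in Rescue. The difference from PKP4-KO was 4.55 ± 0.28 (SE), adjusted p = 6.66e-12 for WT. For Rescue it was 3.51 ± 0.27 (SE), adjusted p = 2.11e-09. For Ndrg1 the change was 0.90 in WT, a difference of 4.15 ± 0.24 (SE), adjusted p = 4.27e-12. Both genes rose in WT and in Rescue as well, by smaller amounts.

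Of 23 suprabasal genes, 9 rose more in PKP4-KO than in WT and 6 more than in Rescue. The number above Rescue was 3 without TMM factors and 3 in a fit of only the libraries compared. Their median change was 2.49 in PKP4-KO, 0.91 in WT and 1.77 in Rescue, with 14 called higher in WT and 18 in Rescue. Against HCM, 2 of the 23 had a more positive change in LCM and 9 a more negative one. The 2 were 1 without both libraries that stood apart, without the 24 h replicate 1 or without the 72 h replicate 3. Of 34 cornified envelope genes, 10 rose more than in WT, while 2 rose more and 1 less than in Rescue. Their median change was 2.48 in PKP4-KO, 0.93 in WT and 2.425 in Rescue, with 13 called higher in WT and 25 in Rescue. In HCM, 17 of the 34 rose more than in LCM and none less, with a median of 4.06 (11 in a fit of only the libraries compared). Krt1 and Krt10 were among the genes that rose more in PKP4-KO than in Rescue. In Rescue cells in LCM, Krt10 was at 14.3 ± 12.3 CPM at 24 h and 12.7 ± 1.43 CPM at 72 h, so that the difference of the changes was 4.95 ± 0.57 (SE), adjusted p = 2.46e-06. Krt1 was at 8.78 ± 10.9 CPM and 3.46 ± 0.471 CPM, with a difference of 5.49 ± 0.71 (SE), adjusted p = 1.56e-05. In WT cells in LCM, Krt10 was at 33.7 ± 4.11 CPM and Krt1 at 7.08 ± 1.32 CPM at 72 h. Their difference from PKP4-KO was 2.97 ± 0.55 (SE), adjusted p = 0.000795 for Krt10. It was 0.90 ± 0.75 (SE), adjusted p = 0.634 for Krt1. In PKP4-KO cells in HCM at 72 h, Krt10 reached 4437 ± 393 CPM and Krt1 3752 ± 101 CPM. Their changes from 24 h were not shown to differ from LCM (-0.57 ± 0.53 (SE), adjusted p = 0.501 for Krt10).

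**Figure D3:**
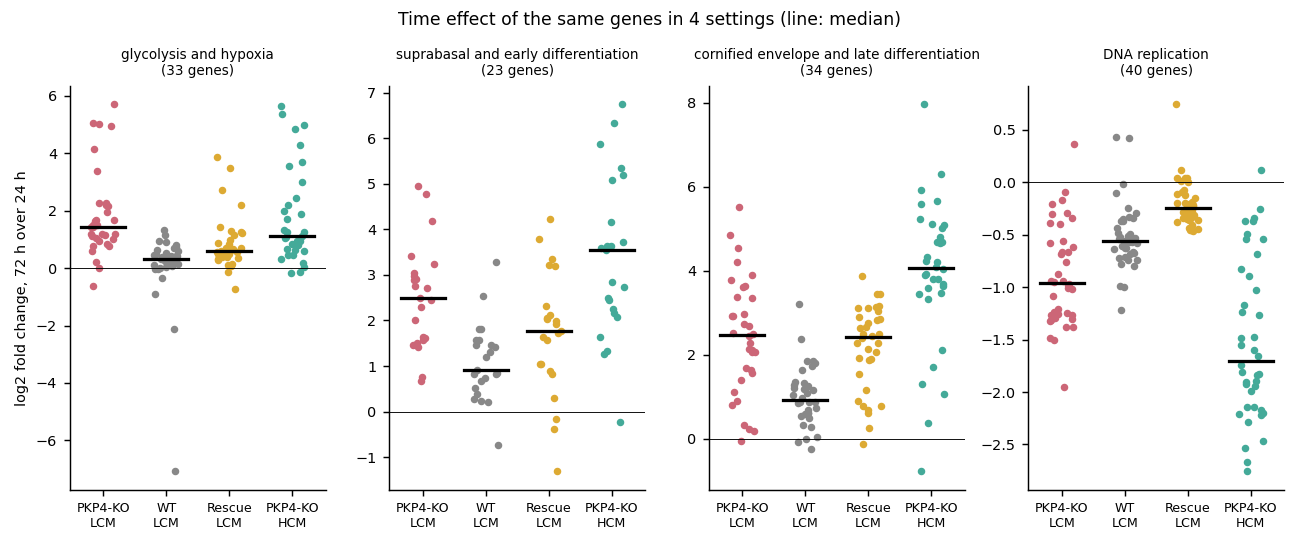
Log2 fold change at 72 h over 24 h of the tested members of 4 gene lists (points) with their median (line) in PKP4-KO in LCM, WT in LCM, Rescue in LCM and PKP4-KO in HCM, on axes that differ between panels. For glycolysis and hypoxia the medians were 1.42, 0.31, 0.61 and 1.12, and for DNA replication -0.96, -0.56, -0.24 and -1.70.

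The median change of the DNA replication genes was below 0 in each setting. Of 40, 5 fell more in PKP4-KO than in WT, among them Rrm2 (-0.93 ± 0.20 (SE), adjusted p = 0.00351) and Ccne1 (-0.89 ± 0.21 (SE), adjusted p = 0.00968), and none fell less. Against Rescue 13 fell more and none less (5 more in a fit of only the libraries compared), among them Cdc6 (-1.96 ± 0.29 (SE), adjusted p = 0.000103), which was not shown to change with time in Rescue (0.01). Against HCM 15 fell less in LCM and none more, or 39 without TMM factors, 9 without the 24 h replicate 1 and 8 without the 72 h replicate 3. Against WT the number was 3 when the 24 h replicate 2 or 3 was left out. Of 40 mitosis genes, 2 fell more than in Rescue (Aurka and Foxm1), 16 fell less than in HCM (31 without TMM factors, 8 without the 24 h replicate 1, 9 without the 72 h replicate 3), and 0 differed from WT in edgeR's test, with 2 at an unadjusted p below 0.05, 0 by DESeq2 and 1 without the 24 h replicate 1. The calls against Rescue were lost without the 72 h replicate 1 or the 24 h replicate 3. Of 26 cytokine genes, 10 rose more or fell less in PKP4-KO than in WT and 9 than in Rescue, with Tslp at a difference of 2.90 ± 0.55 (SE), adjusted p = 0.000976. For Rescue it was 2.78 ± 0.49 (SE), adjusted p = 0.000633. Of 29 AP-1 and immediate-early genes, 10 were more positive than in WT and 0 more negative (2 at an unadjusted p below 0.05, 0 by DESeq2), with Maff at 3.26 ± 0.33 (SE), adjusted p = 1.41e-07. Of 14 desmosome genes, 1 differed from WT and 1 from Rescue, in each case toward a larger rise and in each case Pkp2 (3.65 ± 0.60 (SE), adjusted p = 0.000193 for WT). The number was 2 for both comparisons when the 72 h replicate 1 was left out, and 2 for WT without the 72 h replicate 2.

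The sharpest single differences by the naming rule were as follows. Against WT they were found for Ndufa4l2, Aldoc, Nxph4 and Myo5b. Myo5b, a myosin of recycling endosomes, was at 0.634, 0.201 and 0.281 CPM at 24 h and 13.7, 8.64 and 9.799 CPM at 72 h (log2 fold change 4.91 ± 0.33 (SE), adjusted p = 3.5e-12) and differed from WT by 4.56 ± 0.41 (SE), adjusted p = 2.72e-08. Aldoc differed by 5.49 ± 0.81 (SE), adjusted p = 4.15e-05. Ndufa4l2, which was near 3 counts in WT at 24 h (0.196 ± 0.0746 CPM), differed by 5.56 ± 1.30 (SE), adjusted p = 0.00845. Against Rescue they were found for Krt1, Selenbp1, Tdh, Krt10 and Krt84. Selenbp1 rose from 2.78 ± 1.04 CPM to 9.76 ± 1.198 CPM in Rescue, a difference of 5.23 ± 0.48 (SE), adjusted p = 4.76e-08. It rose from 0.957 ± 0.668 CPM to 5.87 ± 0.755 CPM in WT (4.46 ± 0.52 (SE), adjusted p = 1.22e-06). Tdh was at 1.21 ± 0.407 CPM at 72 h in Rescue. The hard keratin Krt84 was at 1.69, 0.853 and 0.421 CPM at 24 h and 29.4, 42.1 and 40.6 CPM at 72 h in PKP4-KO, with a difference from Rescue of 4.01 ± 0.59 (SE), adjusted p = 9.14e-05. Timp3 was at 1.37 ± 0.635 CPM in WT and 3.56 ± 0.882 CPM in Rescue at 24 h in LCM, against 224 CPM in PKP4-KO. Its change differed from WT by -2.53 ± 0.55 (SE), adjusted p = 0.00458.

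**Figure D4:**
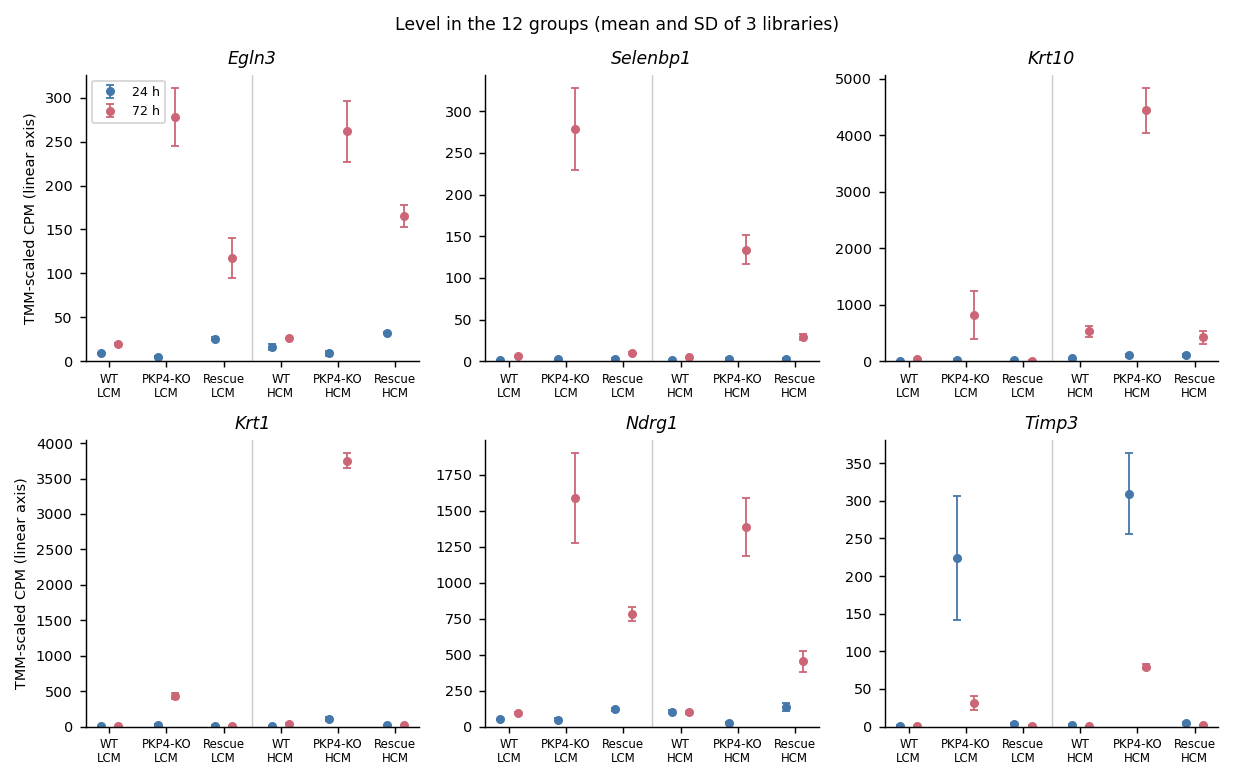
Mean and SD (3 libraries each) of 6 genes in all 12 groups at 24 h (blue) and 72 h (red), in TMM-scaled CPM on linear axes that differ between panels. Selenbp1 at 72 h in LCM was at 279 CPM in PKP4-KO, 5.87 CPM in WT and 9.76 CPM in Rescue, and Timp3 at 24 h in LCM was at 224, 1.37 and 3.56 CPM.

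Against HCM the sharpest differences were toward a smaller rise in LCM and concerned Serpinb7, Slpi, Krt75, S100a7a and Lce3c. Slpi, a secreted protease inhibitor, was at 87.1, 50.8 and 57.1 CPM at 24 h and 173, 187 and 86.4 CPM at 72 h, with overlapping libraries (log2 fold change 1.19 ± 0.32 (SE), adjusted p = 0.00579), and rose by 5.31 in HCM, a difference of -4.12 ± 0.46 (SE), adjusted p = 4.54e-06. S100a7a, an antimicrobial S100 protein, rose by 1.87 in LCM and 5.70 in HCM (-3.84 ± 0.56 (SE), adjusted p = 5.43e-05). The companion layer keratin Krt75 rose by 1.97 and 5.84 (-3.87 ± 0.55 (SE), adjusted p = 4.7e-05). Lce3c, of the late cornified envelope cluster, rose by 1.40 in LCM, a call lost under 5 of 15 alternatives, and by 5.24 in HCM (-3.84 ± 0.57 (SE), adjusted p = 7.05e-05). Serpinb7 stayed near 3 counts in LCM (0.203 ± 0.152 to 0.354 ± 0.0654 CPM, log2 fold change 0.80, adjusted p = 0.469) and rose by 5.66 in HCM (-4.86 ± 1.01 (SE), adjusted p = 0.00234). Of the glycolysis and hypoxia genes, Egln3 rose more in LCM than in HCM (0.87 ± 0.27 (SE), adjusted p = 0.0332).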

How the data were processed

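Poly(A) RNA of primary mouse keratinocytes was sequenced with strand-specific paired-end reads, and the authors deposited 1 table of raw read counts per gene for 36 libraries. Per the submitters' processing notes and the study's methods, reads were aligned with HISAT2 2.1.0 to the mm39 genome, to which the GFP-PKP4 sequence had been added, secondary alignments were removed with SAMtools 1.10, and fragments were counted with featureCounts 2.0.0 on an Ensembl annotation. The table held 55358 genes. Mitochondrial genes (37) had 0 counts in all libraries. Library totals ran from 13602728 to 22467187 counts.

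From these counts, genes that passed edgeR's filter on low counts (15114) were fitted over all 12 groups of 3 libraries with TMM factors and edgeR's quasi-likelihood test (edgeR 4.0.16, limma 3.58.1 and R 4.3.3), and p-values were adjusted over all tested genes by the Benjamini-Hochberg method with a threshold of 0.05. The difference between the changes with time of 2 settings was tested as an interaction contrast in the same fit. SE was derived as the absolute log2 fold change divided by the square root of the F statistic of the test. Pkp4 was also compared by an exact permutation test (scipy 1.17.1). Positions and promoters are from GRCm39. In data simulated for the 72 h against 24 h comparison on 14647 genes, 39% of genes changed by 1 and 78% of genes changed by 2 on the log2 scale were called, with 6 false calls among 123. For the difference from WT these were 14% and 60%, with 7 false calls among 81. The simulation gave each gene 1 mean over all libraries, changed 200 genes and held no libraries that stood apart. Its rates therefore need not hold for the real libraries. The members of the comparison and the gene lists were chosen with earlier results of these data known, and the motifs after seeing them. Named genes, protein-coding in each case but the last, were the 8 with the largest change in each direction among called genes of at least 10 CPM without overlap, up to 3 called members of at least 5 CPM per list, the 5 with the largest difference from each other setting, Pkp4, the keratinocyte markers and the 5 genes with most counts. Uncalled members were named to describe a list, and the other called members given as examples were chosen after their values were seen. Some genes that the rule names or the lists hold are not reported here by name and were not replaced. Alternatives were library sizes without TMM factors, no filter, at least 10 counts in every library, DESeq2 1.42.0, a replicate block and fits of only the libraries compared. Each of the 6 PKP4-KO libraries in LCM was also left out in turn. No WT, Rescue or HCM library was left out. Leaving out both libraries that stood apart and an offset for gene length were chosen after seeing the data.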

Additional observations from a re-analysis of the deposited data

Results flagged for a closer look

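For 37 pairs of a gene and a comparison, the change with time in PKP4-KO keratinocytes in LCM differed from the change in another setting by the interaction contrast of edgeR's quasi-likelihood test. Values are the difference of the log2 fold changes, PKP4-KO in LCM minus the other setting. Many repeat comparisons of the report, and no explanation was tested. Over all 122 named genes that were tested, 47 differed from WT, 46 from Rescue and 33 from HCM, so that these pairs are examples. Over all 15114 tested genes the numbers were 794, 794 and 1667. The naming rule took genes partly for large changes or differences, so a higher share among them was built in.

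Against WT in LCM, genes with a more positive change in PKP4-KO were Ndufa4l2 (5.56), Aldoc (5.49), Nxph4 (5.15), Myo5b (4.56), Egln3 (4.55), Selenbp1 (4.46), Ndrg1 (4.15), X2610528A11Rik (3.85), Pkp2 (3.65), Tdh (3.53), Maff (3.26), Krt10 (2.97) and Tslp (2.90). Aldoc had changes of opposite sign, 3.39 in PKP4-KO and -2.11 in WT. Genes with a more negative change were Txnip (-2.63), Timp3 (-2.53), Klra4 (-1.76), Ets1 (-1.24), Lrrc8c (-1.05), Rrm2 (-0.93) and Ccne1 (-0.89). Klra4, Ets1 and Lrrc8c had negative changes in WT too, of -1.20, -1.21 and -1.53, so that the changes differed in size and not in direction.

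Against Rescue in LCM, the difference was 5.49 for Krt1, 5.23 for Selenbp1, 5.18 for Tdh, 4.95 for Krt10, 4.01 for Krt84, 3.51 for Egln3, 3.75 for Pkp2 and 2.78 for Tslp. It was -1.96 for Cdc6, -0.53 for Aurka and -0.87 for Foxm1. Against PKP4-KO in HCM, it was -4.86 for Serpinb7, -4.12 for Slpi, -3.87 for Krt75, -3.84 for S100a7a and -3.84 for Lce3c, each with a larger rise in HCM, and 0.87 for Egln3.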

How the results depend on the processing

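Of the totals, 1710 genes were called with time in a fit of only the 6 libraries (1100 higher, 610 lower), against 3952 over all 36. Differences from WT numbered 439 in a fit of only the libraries compared and 516 without the filter on low counts (against 794), those from Rescue 229 and 415 (against 794), and those from HCM 818 and 1100 (against 1667). Without TMM factors, 1069 genes were higher, 4041 were lower, and 5387 differed from HCM. Without both libraries that stood apart, 1110 differed from HCM. Leaving out 1 PKP4-KO library in LCM gave 2742 to 4356 calls with time, 1414 to 1916 higher and 1328 to 2440 lower. It gave 565 to 826 differences from WT, 493 to 924 from Rescue and 932 to 2107 from HCM. Dependence on single WT, Rescue or HCM libraries was not computed. No named gene called with time changed sign under these alternatives. List medians did. Without TMM factors they were -0.16 for NRF2 targets, -0.01 for lysosome and autophagy, -0.32 for sterol and fatty acid synthesis and -0.10 for histones. With the offset for gene length they were 0.14 for adherens junctions, 0.02 for actin, 0.12 for keratinocyte markers and -0.20 for histones. Medians near 0 of the interferon, melanocyte, TGF-beta and sterol lists also changed sign under at least 1 alternative. So did median differences of the AP-1, cornified envelope and desmosome lists from Rescue, and of the cytokine, desmosome and glycolysis lists from HCM. The cause was not tested.

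With the replicate block in the fit of all 36 libraries, 3877 genes were called with time (1824 higher, 2053 lower), and 767, 759 and 1573 genes differed from WT, Rescue and HCM. With the replicate block and only the libraries compared, these were 631 (506 and 125), 338, 71 and 376. Same-numbered PKP4-KO libraries in LCM had correlations of their deviations from the group means of -0.36, -0.55 and 0.43, so the numbers were not taken to pair the libraries.

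With 3 libraries a group, small changes can be missed, and levels near 3 counts (0.140 to 0.196 CPM before TMM scaling) limit low genes. Of 115 named genes called, 46 were not called with the block in the fit of the 6 libraries, 21 in that fit without the block, 5 without TMM factors, 3 with the offset for gene length, and 2 (Krt7 and Dst) without both libraries that stood apart. DESeq2 called all 115.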
